A study of Rattus norvegicus with 48 samples.

Results

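The comparison described here sets the amygdala against the ventral striatum in 42-day-old Long Evans rats exposed to ethanol before birth. Its members were chosen by the labels alone, as 24 of the 48 small RNA libraries, 12 of amygdala and 12 of ventral striatum. The dams of these rats had been injected with ethanol at mid-gestation, and the dams of the other 24 libraries' rats with saline. After weaning the rats lived either with littermates of the same sex (non-enriched) or with unfamiliar rats of the same sex from untreated dams (socially enriched), and all went through a social interaction test on the day the tissue was taken. Each sex, housing and region gave 3 libraries, females and males alike. Both regions were dissected whole from the same rats, and each library held RNA of several rats of 1 sex pooled together, so the spread given below is not that between single rats. The methods describe the replicates as separate pools, while the series description calls them sequencing runs, so the p-values measure the spread between libraries, which may be partly technical. The question is which miRNAs told the regions apart after prenatal ethanol, and for which of them that difference departed from the difference in saline rats of the same age, sexes and housings.

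A miRNA is cut from a hairpin precursor, and either arm of the hairpin, named 5p or 3p, can give the mature strand. The mature strand guides Argonaute proteins to messenger RNAs, mainly through the bases called the seed, and lowers their translation or stability. The amygdala is known for its part in fear and social behaviour, and the ventral striatum, which includes the nucleus accumbens, for its part in reward and motivation. Both hold neurons and glia, and both lie close to a ventricle, where choroid plexus and ciliated ependymal cells have miRNAs of their own.

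The mature sequences that the results turn on are shown first, from the RefSeq miRNA table of GRCr8, with bases 2 to 8, the seed, in capitals. The first set holds the 3 mature miRNAs with the largest excess in ventral striatum and, after them, 2 that are more abundant.
miR-489-3p: aUGACAUCacauauauggcagc
miR-653-5p: uUGAAACAuucucuacugaac
miR-187-3p: uCGUGUCUuguguugcagccgg
miR-153-3p: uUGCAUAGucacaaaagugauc
miR-149-5p: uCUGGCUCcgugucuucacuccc
The second set shares the seed GGCAGUG and is shown because its members differed between the regions in opposite directions.
miR-34a-5p: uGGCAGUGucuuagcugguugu
miR-34b-5p: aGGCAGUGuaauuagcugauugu
miR-34c-5p: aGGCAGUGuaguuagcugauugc
miR-449a-5p: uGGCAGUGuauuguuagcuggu
The third set holds the miRNAs with an excess in amygdala.
miR-204-5p: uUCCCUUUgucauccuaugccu
miR-211-5p: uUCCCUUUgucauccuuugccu
miR-375-3p: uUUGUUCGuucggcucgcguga
miR-184: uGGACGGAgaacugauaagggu
miR-31a-5p: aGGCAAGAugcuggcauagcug
miR-7a-2-3p: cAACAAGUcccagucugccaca
The last pair is shown because miR-133b-3p was the mature miRNA whose regional difference departed from saline rats, and its relative differs from it at 1 of 22 bases.
miR-133b-3p: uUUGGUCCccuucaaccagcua
miR-133a-3p: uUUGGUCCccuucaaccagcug

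Values are reads scaled to 1000000 per library (RPM), with rows of 1 name summed, and the mature and the precursor names of a library each reach that sum. The step between low values put the ethanol libraries at 363135 to 1281066 mature reads. The amygdala libraries were shallower (median 806843) than those of ventral striatum (median 1014683), and 3 reads, the level below which a value was not read as present, were worth 2.34 to 8.26 RPM. Neuron-enriched miRNAs, such as miR-124, miR-9 and miR-128, summed to 46628 to 74793 RPM in amygdala and 51068 to 79999 RPM in ventral striatum. The lists hold no miRNA that defines either region, so the region labels themselves were not checked. Of the 12 amygdala libraries, 7 exceeded every ventral striatum library in the summed choroid plexus list (miR-204, miR-211, miR-448 and miR-1298), and the other 5 lay below the highest of them. That sum ran from 3853 to 131324 RPM in amygdala and from 4511 to 7391 RPM in ventral striatum, so results on those miRNAs are given with and without the libraries that hold the most.

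Of 915 names tested (501 mature and 414 precursor), 192 differed between amygdala and ventral striatum at an adjusted p under 0.05 in limma, 21.0% of those tested. The ventral striatum was higher for 133 of them (14.5%) and the amygdala for 59 (6.45%). The 192 were 100 mature and 92 precursor names. A precursor can count the reads of its mature strands, so a miRNA can enter these counts more than once. The median difference over all names was -0.10 on the log2 scale, toward ventral striatum. After the libraries were rescaled by their median ratio, that median was -0.02 and the calls were 153. Of these, 80 were higher in amygdala and 73 in ventral striatum, so the excess of calls on the ventral striatum side depended on the scaling. With log2 mature reads as a covariate the calls were 165, of which 65 were higher in amygdala and 100 in ventral striatum. Differences were mostly small, with a median size of 0.50 log2 among the calls. Only 26 calls reached 1 log2, 12 toward amygdala and 14 toward ventral striatum.

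The largest differences toward ventral striatum belonged to miR-653-5p, miR-489-3p and miR-187-3p. RefSeq (GRCr8) places the hairpins of miR-489 and miR-653 next to each other within the bounds of Calcr, the calcitonin receptor gene, on the same strand. miR-489 is known for holding muscle stem cells in quiescence. All 4 mature strands of the pair were called higher in ventral striatum, with a median of -2.30 log2.

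miR-489-3p was at 0 to 12.6 RPM (median 4.67) in the 12 amygdala libraries and at 16.4 to 77.3 RPM (median 26.3) in the 12 ventral striatum libraries. Every ventral striatum library was above every amygdala library, and 1 amygdala library held no read. The difference was -2.45 log2 (SE 0.47, adjusted p = 0.00024). miR-653-5p was at 0 to 16.3 RPM (median 2.56) in amygdala and 11.3 to 60.1 RPM (median 28.7) in ventral striatum. Here 9 ventral striatum libraries were above all amygdala libraries, and the difference was -2.95 log2 (SE 0.47, adjusted p = 3.9e-05). Amygdala levels of both strands were at or near the level of 3 reads, so the fitted folds depend on the 1 RPM added before the logarithm.

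The hairpin of miR-187-3p lies within no gene of the RefSeq table. This miRNA was at 10.8 to 21.5 RPM (median 14.9) in amygdala and at 33.9 to 129 RPM (median 73.6) in ventral striatum. The groups did not overlap, and the ventral striatum mean was 5.0 times that of amygdala. With -2.19 log2 (SE 0.21, adjusted p = 1.3e-09) it was the difference with the smallest adjusted p among mature names, and it was called in each of 15 alternative analyses. The names whose 12 and 12 libraries did not overlap were 8 of 915 (0.874%), all higher in ventral striatum: miR-187-3p, miR-489-3p and the precursors mir-187, mir-489, mir-653, mir-101b, mir-337 and mir-3544. Since mir-187 and mir-489 are the precursors of the mature names listed, the 8 are not separate observations. The means of mir-337, 2.04 RPM in amygdala and 3.07 RPM in ventral striatum, were near the level of 3 reads.

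Other mature names toward ventral striatum, singled out after their values were seen, overlapped between the regions. miR-34a-5p, a target of p53, was at 56.8 to 134 RPM (median 93.6) in amygdala and 90.3 to 329 RPM (median 198) in ventral striatum. Of its ventral striatum libraries, 10 were above all amygdala libraries, and the difference was -1.04 log2 (SE 0.20, adjusted p = 0.00033). miR-153-3p, a neuron-enriched miRNA whose hairpin lies within the secretory granule gene Ptprn2, was at 1831 to 4104 RPM (median 3027) in amygdala and 3391 to 5902 RPM (median 4871) in ventral striatum. Its difference was -0.74 log2 (SE 0.13, adjusted p = 0.00013). miR-149-5p, from within the glypican gene Gpc1, was at 396 to 898 RPM in amygdala and 825 to 1407 RPM in ventral striatum, -0.71 log2 (SE 0.13, adjusted p = 0.00018). For miR-153-3p, 9 ventral striatum libraries exceeded all amygdala libraries, and for miR-149-5p, 10 did.

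Differences of the same direction were also found for miR-598-3p (-0.85 log2, SE 0.17), miR-101b-3p (-0.76, SE 0.13), miR-139-5p (-0.72, SE 0.21) and miR-337-3p (-0.70, SE 0.14). miR-139 lies within Pde2a, the gene of a cyclic nucleotide phosphodiesterase. miR-139-5p was at 77.0 to 225 RPM in amygdala and 139 to 488 RPM in ventral striatum, and its call was lost in 2 of 15 alternatives. miR-101a-3p, which differs from miR-101b-3p at 1 of 21 bases, differed by -0.12 log2 with an adjusted p of 0.36, and how the authors' counting split reads between the pair is not known.

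**Figure D1:**
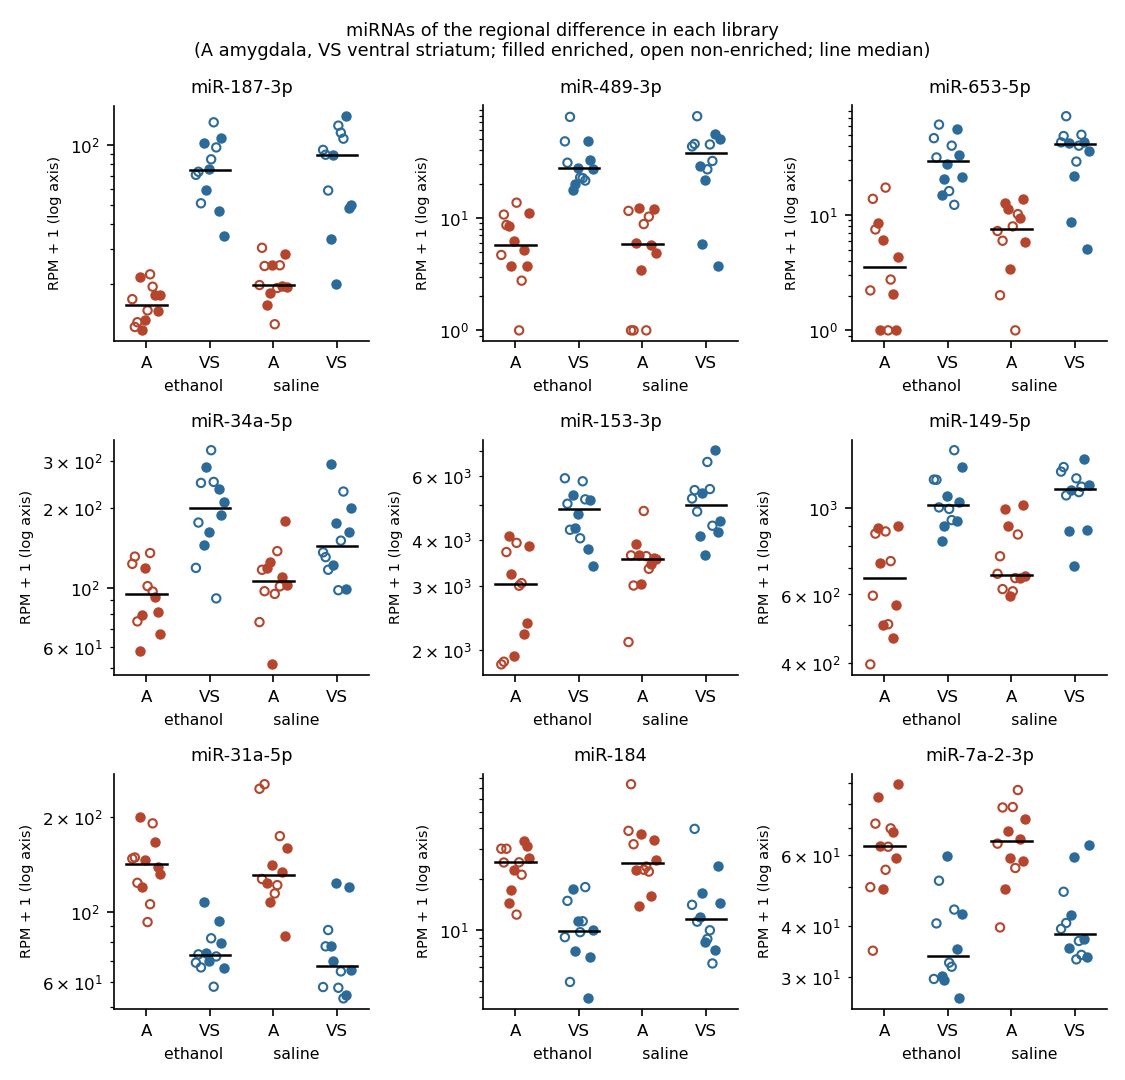
Level of 9 miRNAs in each of the 48 libraries, as RPM + 1 on a log axis, by prenatal treatment and region (12 libraries a group, line at the median). For miR-187-3p and miR-489-3p the 12 ethanol-exposed ventral striatum libraries all lie above the 12 of amygdala, while miR-31a-5p, miR-184 and miR-7a-2-3p lie the other way with some overlap.

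Toward amygdala no name separated the 12 libraries of each region completely. miR-184, known from lens and cornea, was at 11.3 to 32.5 RPM (median 24.1) in amygdala and 2.92 to 16.9 RPM (median 8.85) in ventral striatum, and 9 amygdala libraries were above all those of ventral striatum. Its difference was 1.29 log2 (SE 0.23, adjusted p = 0.00015). miR-31a-5p was at 91.8 to 199 RPM (median 141) in amygdala and 56.8 to 106 RPM (median 71.7) in ventral striatum, 0.90 log2 (SE 0.15, adjusted p = 4.9e-05). For this miRNA 10 amygdala libraries lay above all of ventral striatum.

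miR-7a-2-3p, the minor strand of a hairpin whose major strand miR-7a-5p is known from neuroendocrine cells, was at 33.8 to 88.6 RPM in amygdala and 25.5 to 58.6 RPM in ventral striatum, 0.74 log2 (SE 0.15, adjusted p = 0.00038). The major strand, miR-7a-5p, was abundant (medians of 10910 and 10901 RPM) and its difference was 0.19 log2 with an adjusted p of 0.54. Several hairpins can give miR-7a-5p, and the strands need not follow each other. miR-184, miR-31a-5p and miR-7a-2-3p were each called in all 15 alternatives and without any single library.

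The miR-99a, miR-125b and miR-100 hairpins, which lie near let-7 genes on several chromosomes, gave calls toward amygdala. Of the 10 mature names of this list tested, 5 were called higher in amygdala and none in ventral striatum, beside 31 and 69 of all 501 mature names. The median was 0.23 log2 in the list and -0.12 log2 over all mature names. miR-99a-5p had mean levels of 3288 RPM in amygdala and 2017 RPM in ventral striatum (0.69 log2, SE 0.10, adjusted p = 1.9e-05), and miR-100-5p of 4321 and 3162 RPM (0.43 log2, SE 0.15, adjusted p = 0.036). The most abundant members, miR-125a-5p (0.11 log2), miR-99b-5p (-0.01 log2) and miR-125b-5p (0.18 log2), were not called. The neighbouring miR-23a, miR-27a and miR-24-2 hairpins also went 1 way: miR-23a-3p was 0.43 log2, miR-27a-3p 0.43 log2 and miR-24-2-5p 0.39 log2 higher in amygdala, all 3 called among 5 mature names. Of the 5 names of the related miR-23b, miR-27b and miR-24-1 hairpins, none was called (median 0.03 log2).

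The amygdala excess with the largest fitted differences came from miRNAs that varied widely among the amygdala libraries. miR-34b-5p and miR-34c-5p come from neighbouring hairpins on 1 strand and with miR-449 are known for the formation of multiciliated cells. miR-375-3p is known from pancreatic islets and the pituitary, and miR-204-5p, whose hairpin lies within Trpm3, from choroid plexus and retinal pigment epithelium.

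miR-34c-5p ran from 238 to 13297 RPM (median 4279) in amygdala and from 141 to 2795 RPM (median 339) in ventral striatum, and 7 amygdala libraries were above all of ventral striatum. The difference was 2.57 log2 (SE 0.83, adjusted p = 0.025). miR-34b-5p ran from 5.03 to 321 RPM (median 95.4) in amygdala and from 0.981 to 76.4 RPM (median 5.99) in ventral striatum, 2.81 log2 (SE 0.87, adjusted p = 0.018). miR-375-3p ran from 56.6 to 2221 RPM (median 339) and from 8.85 to 308 RPM (median 24.1), 2.73 log2 (SE 0.81, adjusted p = 0.014). The regions overlapped for each of the 3, since the lowest amygdala libraries were below the highest of ventral striatum.

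miR-204-5p ran from 3500 to 122453 RPM (median 19818) in amygdala, but only from 3903 to 6958 RPM (median 5797) in ventral striatum. It took up to 12.2% of the mature RPM of an amygdala library and at most 0.696% of a ventral striatum library. Female non-enriched replicate 2 and male non-enriched replicate 3 were the highest, both over 100000 RPM, and the same libraries were among the 5 highest for miR-34c-5p. The difference of miR-204-5p was 1.44 log2 (SE 0.53, adjusted p = 0.047), and that of miR-211-5p, which differs from it at 1 of 22 bases and may share its reads, 0.77 log2 (SE 0.27, adjusted p = 0.039).

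Without those 2 libraries, miR-204-5p differed by 0.85 log2 (adjusted p = 0.23) and miR-34c-5p by 2.10 log2 (adjusted p = 0.096). miR-34b-5p differed by 2.34 log2 (adjusted p = 0.075) and miR-375-3p by 2.38 log2 (adjusted p = 0.056). None of the 4 was called, though each kept its direction. Those 2 libraries were picked by miR-204-5p itself, so a smaller difference in it, and in miRNAs that rose with it, was built in. Without the 4 shallowest amygdala libraries, which include female non-enriched replicate 2, none of the 4 miRNAs was called in limma either. There miR-204-5p differed by 1.22 log2 (adjusted p = 0.17), miR-34c-5p by 2.37 (0.10), miR-34b-5p by 2.58 (0.089) and miR-375-3p by 2.55 (0.073). The call of miR-204-5p stood in 5 of the 24 analyses that left out a single library, and that of miR-211-5p in 9. Over the 12 amygdala libraries the logarithms of miR-204-5p and miR-34c-5p had a Pearson r of 0.92 (n = 12), and those of miR-34c-5p and miR-375-3p 0.93. In ventral striatum miR-34c-5p and miR-375-3p again went together (r = 0.97), and the 5 libraries highest in 1 were the 5 highest in the other, while miR-204-5p hardly varied. These r describe values that share a library and its scaling. With the summed choroid plexus list as a covariate, miR-34c-5p differed by 0.86 log2 (adjusted p = 0.39) and miR-375-3p by 1.43 log2 (adjusted p = 0.19). In that fit 140 names were called, 98 higher in ventral striatum and 42 in amygdala, and 117 of them were among the 192. The part of those cell types in the results was not tested further. In bulk tissue, more cells of a type and more of the miRNA per cell cannot be told apart.

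**Figure D2:**
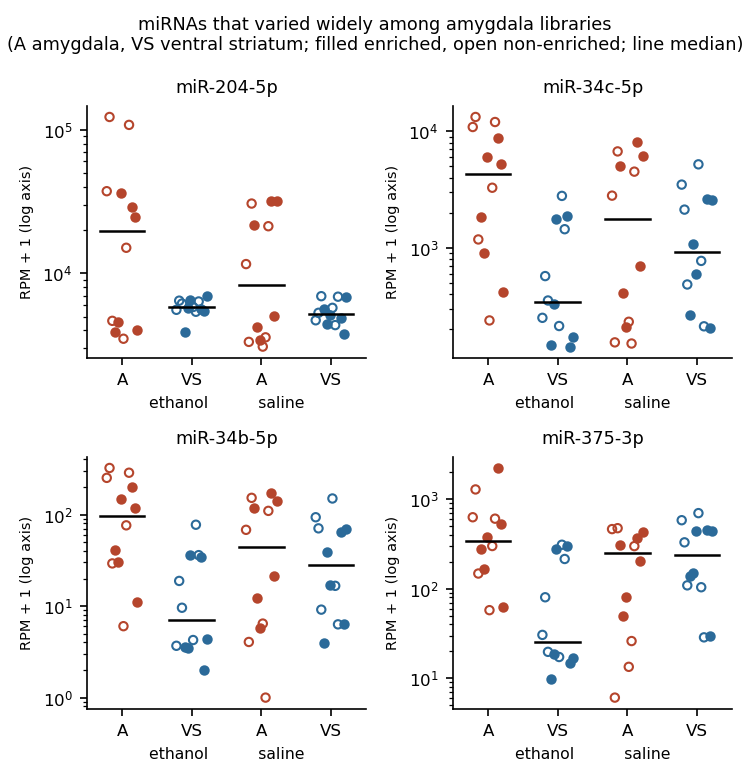
Level of miR-204-5p, miR-34c-5p, miR-34b-5p and miR-375-3p in each of the 48 libraries, as RPM + 1 on a log axis, by prenatal treatment and region (12 libraries a group, line at the median). In amygdala each miRNA spans more than an order of magnitude within both treatments, whereas miR-204-5p stays between 3903 and 6958 RPM in the ethanol-exposed ventral striatum.

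miR-34a-5p and the miR-34b and miR-34c strands thus differed in opposite directions with the same seed, miR-34a-5p by -1.04 log2 and miR-34b-5p by 2.81 log2. Of the 4 tested names with this seed, 2 were called higher in amygdala and 1 in ventral striatum, and miR-449a-5p (2.00 log2, adjusted p = 0.098) was not called. Without the 2 libraries richest in miR-204-5p, miR-34a-5p differed by -1.05 log2 (adjusted p = 0.0011). In that limma fit miR-34b-5p and miR-34c-5p were not called (adjusted p = 0.075 and 0.096), so the opposite calls depended on those libraries. In saline rats miR-34a-5p differed by -0.53 log2, miR-34b-5p by 0.07 log2 and miR-34c-5p by 0.27 log2. Among 464 mature names with a sequence in the table, 90 of them called, the calls spread over 85 seeds. Calls in both directions were found for 3 seeds. The others were AGUGCAA, with miR-130a-3p at 0.48 log2 and miR-130b-3p at -0.79 log2, and GUAAACA, with miR-384-5p at 0.16 log2 and miR-30c-5p at -0.36 log2. The means of miR-130b-3p, 2.96 RPM in amygdala and 5.56 RPM in ventral striatum, were near the level of 3 reads. Its saline difference was 0.20 log2.

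The 10 most abundant miRNAs took 50.8% to 62.6% of the mature RPM in amygdala and 56.4% to 63.5% in ventral striatum, and 1 of them was called. miR-146b-5p, known for damping inflammatory signalling, was at 19477 to 40239 RPM (median 30885) in amygdala and 17841 to 29094 RPM (median 22771) in ventral striatum, 0.42 log2 (SE 0.12, adjusted p = 0.010). With depth as a covariate it was 0.30 log2 (adjusted p = 0.083) and without the 4 shallowest amygdala libraries 0.36 log2 (adjusted p = 0.057), and the call was lost in both. Of its amygdala libraries, 7 were above all of ventral striatum. miR-181a-5p, the most abundant, had medians of 151479 and 175752 RPM and a difference of -0.21 log2 (SE 0.09, adjusted p = 0.071). The other 8 differed by -0.12 to 0.05 log2, and miR-22-3p had the lowest of these and miR-26a-5p the highest. Under the median-ratio rescaling miR-127-3p, miR-30a-5p, miR-191a-5p, miR-9a-5p, miR-143-3p and miR-27b-3p changed sign, at 0.00 to 0.10 log2, so no direction is given for them.

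Among the neuron-enriched miRNAs, 3 of 32 mature names were called higher in amygdala and 5 in ventral striatum, with a median of 0.01 log2. These are 8 of 32, beside 100 of all 501 mature names. miR-218a-5p, known from motor neurons, was higher in amygdala by 0.57 log2 (adjusted p = 0.0047), and miR-135a-3p by 0.91 log2 (adjusted p = 0.036). The means of miR-135a-3p, 9.39 RPM in amygdala and 4.86 RPM in ventral striatum, were near the level of 3 reads. Its more abundant arm, miR-135a-5p (116 and 80.1 RPM), was not called (0.55 log2, adjusted p = 0.085). miR-138-5p, known for restraining dendritic spine growth, was higher in ventral striatum by a difference of -0.37 log2 (adjusted p = 0.012), and miR-129-5p by -0.39 log2 (adjusted p = 0.031). The most abundant members, miR-9a-5p (0.00 log2), miR-7a-5p (0.19 log2) and miR-128-3p (0.37 log2, adjusted p = 0.13), were not called.

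Of the oligodendrocyte miRNAs 2 of 6 were called, both toward ventral striatum, with a median of -0.52 log2, beside 69 of all 501 mature names called in that direction and a median of -0.12 log2. miR-338-3p had mean levels of 6853 RPM in amygdala and 9616 RPM in ventral striatum (-0.55 log2, adjusted p = 0.015), and miR-219a-2-3p of 1099 and 1663 RPM (-0.69 log2, adjusted p = 0.0040). Both are known to promote the maturation of myelin-forming cells. In the immune cell and microglia list 2 of 9 names were called (22.2%), beside 20.0% of all 501 mature names, with a median of -0.01 log2. They were miR-146b-5p toward amygdala and miR-21-5p, at 530 and 737 RPM, toward ventral striatum (-0.50 log2, adjusted p = 0.0025). None of the 7 vascular and mesenchymal, 3 red blood cell, 4 muscle, 4 mir-8 family or 3 miR-183 cluster names was called by limma. Red blood cell miRNAs summed to 8.96 to 46 RPM in amygdala and 18 to 53 RPM in ventral striatum, and muscle miRNAs to 2.70 to 19.6 and 3.57 to 20.3 RPM.

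The imprinted miRNAs of the Dlk1 to Dio3 region, which are transcribed from the maternal chromosome, gave calls toward ventral striatum and none toward amygdala. Of the miR-379 to miR-410 group 8 of 53 names were called, with a median of -0.28 log2, among them miR-410-3p (10083 and 12391 RPM, -0.35 log2, adjusted p = 0.017) and miR-485-3p (-0.69 log2, adjusted p = 0.0068). Of the 14 names antisense to Rtl1 6 were called, such as miR-337-3p and miR-136-3p (7068 and 8835 RPM, -0.35 log2, adjusted p = 0.020), while miR-127-3p was at -0.03 log2. miR-382-3p, 1 of the 8, held the same value as miR-3592 in every library, so its reads cannot be assigned to 1 name. The share called, all toward ventral striatum, was 15.1% in the larger group, close to the 14.5% of all 915 names called in that direction. In the smaller group it was 42.9%. The excess of calls toward ventral striatum over all names depended on the scaling, and these groups were not counted under the median-ratio rescaling. Of all 501 mature names, 69 were called in that direction and 20.0% in either.

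In the miR-130 and miR-301 list 3 of 5 names were called. miR-130a-3p (0.48 log2) was called toward amygdala. Toward ventral striatum the calls were miR-130b-3p (-0.79 log2, near the level of 3 reads) and miR-301a-3p (-0.30 log2). In the other families, beside 20.0% of all 501 mature names, the calls were 2 of 19 for let-7 and miR-98 (let-7d-5p and let-7d-3p, both toward ventral striatum), 3 of 19 for the miR-17-92 and related clusters (miR-19b-3p, miR-25-3p and miR-93-5p, toward ventral striatum), and 2 of 6 for miR-148 and miR-152 (both arms of miR-148a, toward ventral striatum). Of the miR-221 and miR-222 names 1 of 3 was called (miR-221-5p), and of the X-linked miR-322 to miR-450 names 1 of 9 (miR-351-5p), both toward amygdala. Of the miR-30 and miR-384 names 3 of 11 were called. These were miR-384-3p and miR-384-5p toward amygdala and miR-30c-5p (-0.36 log2) toward ventral striatum. The calls toward amygdala in these lists were 0.16 to 0.56 log2. None of the 8 miR-181, 6 miR-29, 4 miR-132 and miR-212 or 6 miR-344 names was called by limma, and neither was miR-10a-5p, the Hox cluster name tested (-1.05 log2, adjusted p = 0.066).

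**Figure D3:**
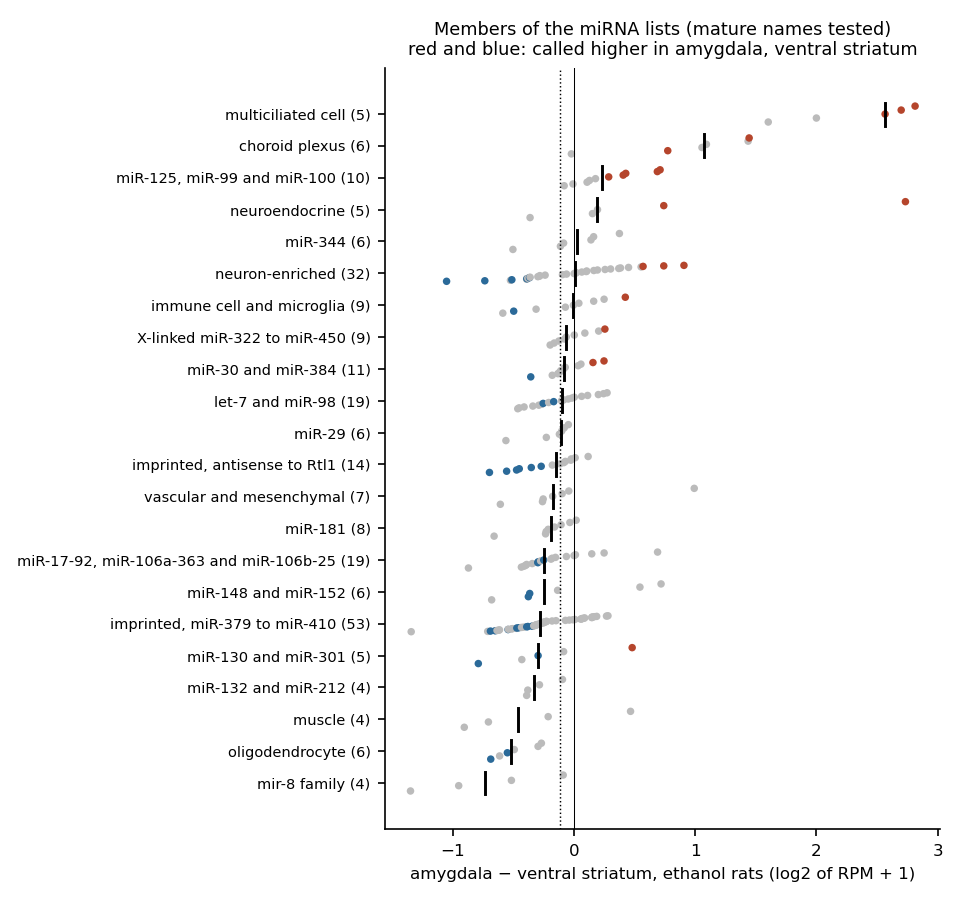
Difference between amygdala and ventral striatum in ethanol-exposed rats, on the log2 scale, of each tested mature member of the 22 miRNA lists with at least 4 names tested, with the number tested in brackets, a bar at the list's median and a dotted line at the median of all 501 mature names. Red and blue points were called higher in amygdala and in ventral striatum; of the lists drawn, the multiciliated cell list has the highest median (2.57) and the mir-8 family, with no call, the lowest (-0.74).

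Among the 85 hairpins with both arms at a mean of at least 10 RPM, the arms had the same sign in 53. Of these 85, 32 had at least 1 arm called, and the arms had the same sign in 26 of them. Both arms were called in 7, and in each of those the arms went the same way.

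The saline rats gave 93 calls between the same regions, 10.2% of the 915 mature and precursor names. The amygdala was higher for 39 (4.26%) and the ventral striatum for 54 (5.9%). Of the 93, 78 were also called in ethanol-exposed rats, all in the same direction. That is 40.6% of the ethanol calls and 83.9% of the saline calls. Of the 192 names called after ethanol, 188 had the same sign in saline rats, and of the 708 names called in neither, 70.5% did. The size was larger after ethanol for 174 of the 192, names picked by their ethanol values, and for 33 of the 93 saline calls it was larger in saline rats. Over the 590 names with a mean of at least 10 RPM the differences in the treatments had a Pearson r of 0.70, a description across miRNAs, which are not independent replicates.

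miR-187-3p, miR-489-3p and miR-653-5p differed in saline rats as well. miR-187-3p was at 11.6 to 29.5 RPM (median 18.8) in saline amygdala and 19.1 to 138 RPM (median 88.1) in saline ventral striatum, -1.75 log2, and the difference departed from that after ethanol by -0.44 log2 (95% interval -1.03 to 0.15). For miR-489-3p the saline difference was -2.61 log2 (departure 0.15, interval -1.19 to 1.49), and for miR-653-5p -2.30 log2 (departure -0.65, interval -2.02 to 0.71). In saline rats the groups overlapped for all 3, since the lowest ventral striatum libraries fell among those of amygdala. miR-31a-5p (0.96 log2 in saline rats) and miR-184 (1.13 log2) also kept their direction, with departures of -0.06 log2 (interval -0.49 to 0.36) and 0.16 log2 (interval -0.51 to 0.84).

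**Figure D4:**
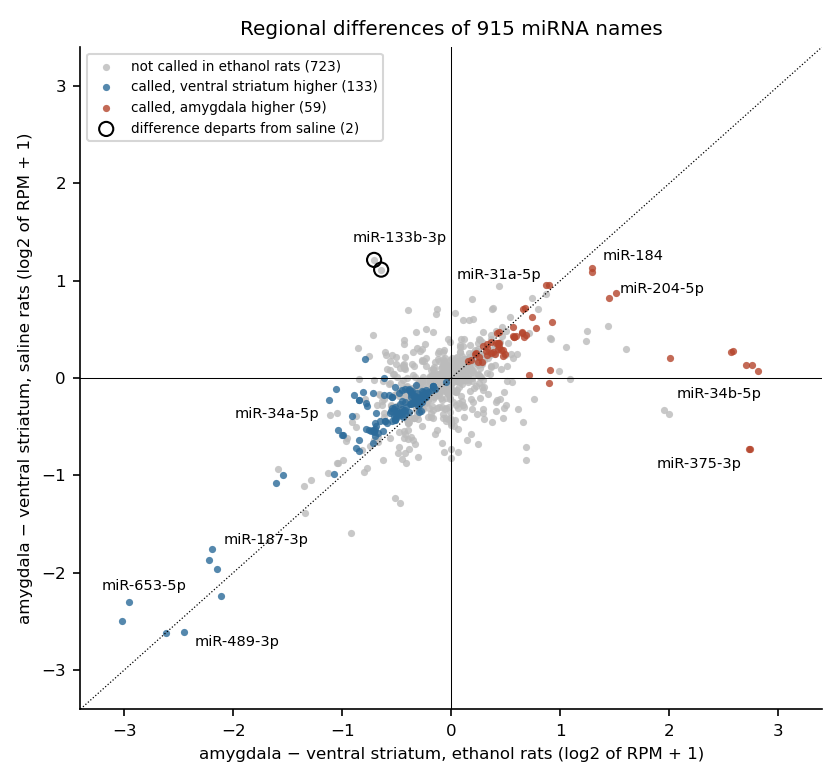
Difference between amygdala and ventral striatum of 915 miRNA names in ethanol-exposed (horizontal axis) and saline rats (vertical axis), both on the log2 scale of RPM + 1, with a dotted line where they are equal. Colours mark calls in ethanol-exposed rats and rings the 2 names whose difference departs from saline; miR-187-3p, miR-489-3p and miR-653-5p lie low in both, while miR-34b-5p and miR-375-3p lie far right and near or below 0 in saline rats.

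The departure from saline rats was called for 2 names, 0.219% of those tested, and both are forms of miR-133b, a miRNA known from muscle. At an unadjusted p under 0.05 there were 31 names (3.39%), 15 of them (1.64%) with a difference more toward amygdala after ethanol. miR-133b-3p departed by -1.92 log2 (SE 0.38, 95% interval -2.70 to -1.14, adjusted p = 0.0091) and its precursor mir-133b by -1.76 log2 (SE 0.35, adjusted p = 0.0091). The mature strand held 9 reads in all over the 12 ethanol amygdala libraries, 26 over the 12 of ethanol ventral striatum, 22 over those of saline amygdala and 6 over those of saline ventral striatum. It was at 0 in 7 ethanol amygdala, 2 ethanol ventral striatum, 0 saline amygdala and 8 saline ventral striatum libraries, and no library held more than 6 reads. Its precursor counts the same reads, so the pair is 1 observation. miR-133a-3p, which has the same seed, held 32 and 79 reads in ethanol and 37 and 72 reads in saline amygdala and ventral striatum, and its departure was -0.45 log2 (interval -1.69 to 0.78, adjusted p = 1.0). Requiring a mean of at least 10 RPM removed both forms of miR-133b before testing, and no departure was called by limma among the 590 names left.

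Toward amygdala the mature names above 10 RPM with the smallest p of the departure were 3 of the miRNAs that varied widely between libraries, and none was called. miR-375-3p departed by 3.46 log2 (SE 1.14, 95% interval 1.14 to 5.79, unadjusted p = 0.0047, adjusted p = 0.86). In saline rats it was at 5.09 to 472 RPM (median 250) in amygdala and 27.6 to 696 RPM (median 238) in ventral striatum, so that the regions overlapped over most of their range. The departures of miR-34b-5p (2.74 log2, unadjusted p = 0.032) and miR-34b-3p (2.57 log2, unadjusted p = 0.035) had adjusted p of 1.0. The summed multiciliated list had medians of 4527 and 356 RPM in ethanol amygdala and ventral striatum and of 1894 and 1051 RPM in the saline regions. Toward ventral striatum the names above 10 RPM with the smallest p were miR-495 (-0.62 log2), miR-126a-3p (-0.21 log2) and miR-339-5p (-0.34 log2), each with an adjusted p of 1.0. For names above 10 RPM the 95% interval of the departure reached 0.37 log2 to either side at the median, without adjustment for the number of names.

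Within the ethanol-exposed rats the regional difference was compared between housings and between sexes. In non-enriched rats 69 names were called (7.54%) and in socially enriched rats 58 (6.34%), of which 32 were called in both with the same sign. The difference between housings was called for 0 names by limma (0.0%), with 20 (2.19%) under 0.05 before adjustment. The smallest adjusted p was 0.61. miR-3068-5p, which ranked first in 1 direction, was at -0.52 log2 in non-enriched and 0.15 log2 in enriched rats, and miR-199a-3p, first in the other, at 0.30 and -0.50 log2. Both had an adjusted p of 1.0 in limma.

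In females 83 names were called (9.07%) and in males 78 (8.52%), 39 of them in both with the same sign. The difference between the sexes was called for 0 names by limma (0.0%), with 31 (3.39%) at an unadjusted p under 0.05 and a smallest adjusted p of 0.99. miR-450b-5p was at 0.47 log2 in females and -0.80 log2 in males (unadjusted p = 0.0053), and miR-29c-3p at -0.32 and 0.07 log2 (unadjusted p = 0.0057). miR-187-3p differed by -2.33 log2 in non-enriched, -2.05 in enriched, -2.28 in female and -2.10 in male rats, and miR-31a-5p by 0.91, 0.88, 0.94 and 0.85 log2. All 192 names called over the 24 libraries had the same sign in both housings and in both sexes, which share the libraries that gave the calls.

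**Figure D5:**
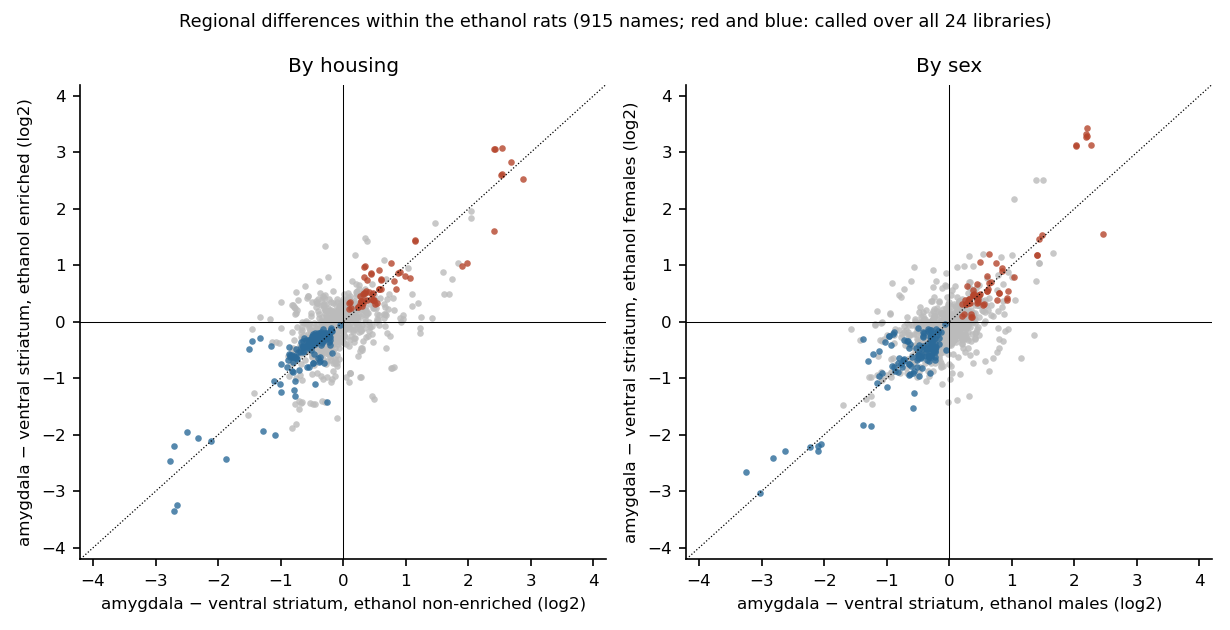
Difference between amygdala and ventral striatum of 915 names within the ethanol-exposed rats, on the log2 scale, for non-enriched against enriched rats (left) and males against females (right), with a dotted line where they are equal and colours for calls over all 24 libraries. The called names lie in the lower left and upper right of both panels, and the difference between housings or between sexes was called for 0 names.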

How the data were processed

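Total RNA was purified with Qiagen columns, pooled, and made into libraries with the Illumina TruSeq small RNA kit. The authors aligned reads with Bowtie to the rat build Rn5, quantified miRBase names in Partek and deposited 1 table of normalized signal, called RPM in its header. Versions of these tools are not given in the sources used here. The authors state that the counting could not tell some members of a family apart, and how such reads were divided is not given. The mature and the precursor names each add up to 1000000 per library, so the values were treated as a signal compared within a name. The 1129 lines were summed to 1063 names, and 0 columns stayed without a sample. Reads were recovered only in part from the steps between low values, so no count test was run.

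The test was limma 3.58.1 in R 4.3.3, fitted to log2(RPM + 1) of every name above 0 in at least 12 of 48 libraries. The fit held 16 cells of sex, prenatal exposure, housing and region in all 48 libraries, moderated with a trend, with two-sided tests and Benjamini-Hochberg adjustment over 915 names at 0.05. Fold changes on this scale understate those of low names, and 16 tested names never exceed 0.001 RPM. Single miRNAs were also tested by a permutation of mean RPM, 12 against 12 libraries (100000 resamples), and by an exact sign-flip test over 12 consecutively numbered pairs, both two-sided. Their p-values are not quoted, since the names were picked by their values in the same libraries. The scripts were tested on simulated data. Depth came from the value of 1 read, and floors cover counting error only.

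Members and lists were chosen with earlier results of these data known. Text names follow a rule: calls without overlap above 10 RPM, the 10 most abundant, the 3 smallest p in each direction of each further contrast, and list members. Only miR-187-3p and miR-489-3p met its first part, so the 10 largest in each direction, and other names outside the rule, were chosen after their values were seen. Alternatives changed the pseudocount, filter, scaling, names, block, depth covariate and libraries. Those on composition and on left-out shallow or miR-204-rich libraries were chosen after seeing the data. Sequences, hairpin positions and host genes came from RefSeq (GRCr8), which matched 464 of 501 mature names by name. No coordinates are given because the builds differ.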

Additional observations from a re-analysis of the deposited data

Results flagged for a closer look

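The difference between amygdala and ventral striatum departed from that in saline rats for miR-133b-3p by -1.92 log2 and for its precursor mir-133b by -1.76 log2, by the test of the interaction between region and prenatal exposure (limma, adjusted p = 0.0091 for both). The call stood in each of the 48 analyses that left out 1 library. The levels were at most 6 reads in any library, and how reads were divided between miR-133b-3p and miR-133a-3p was not tested.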

How the results depend on the processing

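The 192 regional calls were 99 (31 toward amygdala, 68 toward ventral striatum) with mature names only, which are fewer names, and 117 (36 and 81) without the 4 shallowest ethanol amygdala libraries, and 140 to 204 under the other 13 alternatives. Leaving out 1 library gave 162 to 217 calls. The departure from saline rats was called for 0 names at a mean of at least 10 RPM, a filter that drops both forms of miR-133b. It was called for 1 name with mature names only, which drops the precursor, and for 2 to 3 without 1 library. The sex comparison gave 1 call with no filter, miR-381-5p, and the housing and sex comparisons gave 0 without any 1 library. With the replicate number as a block there were 199 regional calls (66 and 133), 172 of them shared with the 192. Same-numbered ethanol libraries of the regions had deviations correlated at -0.15 to 0.56 (median 0.22), over 0.1 in 8 of 12 pairs. Those of saline rats were correlated at -0.35 to 0.40 (median -0.16), over 0.1 in 3 of 12 pairs. The labels do not say whether same-numbered pools came from the same rats, so the main fit used no pairing. The signs of small differences turned, and the cause was not tested: under median-ratio rescaling to 0.0695 (miR-127-3p), 0.0234 (miR-30a-5p), 0.00016 (miR-191a-5p), 0.0966 (miR-9a-5p), 0.0528 (miR-143-3p) and 0.0779 log2 (miR-27b-3p). Without the shallowest libraries they turned to 0.0106 (miR-127-3p), 0.0281 (miR-9a-5p) and, for the housing difference of miR-3065-3p, 0.0018. Without the libraries over 100000 RPM of miR-204-5p they were 0.0589 (miR-127-3p), 0.0723 (miR-9a-5p) and 0.0177 (miR-143-3p). With the choroid plexus and multiciliated lists left out they were 0.0253 (miR-127-3p), 0.0525 (miR-9a-5p), 0.0087 (miR-143-3p) and 0.0337 (miR-27b-3p), and with the choroid plexus covariate 0.0934, 0.0490 and 0.0455 for the first 3. Without 1 library miR-127-3p ran from -0.0845 to 0.0306, miR-9a-5p from -0.0407 to 0.0547 and miR-27b-3p from -0.0541 to 0.0113 log2. The other alternatives for named results gave 30 losses and 1 gain of a call. Depth limits names near 3 reads, 2.34 to 8.26 RPM.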
